A study of Mus musculus with 19 samples.

Results

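The 78 genes followed here encode the proteins of the mitochondrial ribosome, measured in mouse hearts across the first 3 weeks after birth in wild-type animals and in PDK1 conditional knockouts. They were every row of the deposited expression table whose name is Mrpl or Mrps, a number and at most 1 further letter, with pseudogene rows left out. This gave 78 of 56066 rows, 49 named Mrpl for the large subunit and 29 named Mrps for the small one, and all 78 reached the 1 TPM (a length-normalised share of all transcripts of a library) in 3 libraries asked of a gene to be tested. RNA came from whole hearts. The wild-type (WT) groups were P1 (3 libraries), P7 (5) and P21 (4), where P is the postnatal day, and the PDK1 cKO groups were P7 (3) and P21 (3). The labels give neither the driver of the knockout nor, beyond B6 in 2 WT titles, the strain, nor which of the genes abbreviated PDK1 was deleted, and they do not say whether libraries came from separate animals, so p-values here measure the spread between these libraries. A further P21 library, number 63, had a title and a genotype label that disagreed and was kept out of the groups.

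The mitochondrial ribosome sits in the matrix and translates the few messenger RNAs of the mitochondrial genome, which encode core subunits of the respiratory chain and of ATP synthase. Its RNAs are made inside the organelle, but its proteins are encoded in the nucleus, made in the cytosol and imported. Some of them descend from the bacterial ribosome and others were added in mitochondria. The heart, whose muscle cells fill with mitochondria after birth, depends on this machine for oxidative phosphorylation. By these roles the rows held 29 bacterial-type and 22 mitochondria-specific proteins of the large subunit, and 16 and 10 of the small subunit. Mrps30 and Mrps18a keep small-subunit names but sit in the large subunit, and Mrps36 is a subunit of the 2-oxoglutarate dehydrogenase complex rather than of the ribosome. The 78 rows were taken as named.

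The genes were spread over 17 chromosomes. An opposite-strand protein-coding gene started within 1000 bases of 33 of the 78 (42.3%), against 10.9% of 21938 protein-coding genes, and 26 overlapped a protein-coding gene. Promoter sequences from RefSeq (GRCm38.p6) were matched by symbol for 69 of the 78. Within 250 bases upstream of the start, and on either strand, the NRF-1 core GCATGCGC was found in 8 of 69 (11.6%, against 2.6% of 27025 genes), the ETS-factor core CCGGAAG in 18 (26.1% against 7.8%) and the YY1 core AAGATGGC in 4 (5.8% against 1.8%). NRF-1, the ETS factor GABPA (NRF-2) and YY1 are known regulators of nuclear genes for mitochondrial proteins, and a match is a description, not a bound site. The 250 upstream bases are printed here for 5 genes that the results return to. They run 5′ to 3′ on the strand of the gene and end at the base before the RefSeq start. All 5 hold a core, so they are not typical of the 69, and no link between motif and change was tested. Mrpl52 fell between P7 and P21 in WT before and after scaling, Mrpl17 and Mrps22 fell between P7 and P21 on the TPM scale, and Mrpl22 and Mrps11 were lower in P21 cKO hearts after scaling. Capitals mark the motif, in its reverse complement where it lies on the other strand. The windows are chr14:54426659-54426908 (plus strand), chr7:105811088-105811337 (minus), chr9:98601680-98601929 (minus), chr11:58171414-58171663 (plus) and chr7:78782881-78783130 (plus).
Mrpl52: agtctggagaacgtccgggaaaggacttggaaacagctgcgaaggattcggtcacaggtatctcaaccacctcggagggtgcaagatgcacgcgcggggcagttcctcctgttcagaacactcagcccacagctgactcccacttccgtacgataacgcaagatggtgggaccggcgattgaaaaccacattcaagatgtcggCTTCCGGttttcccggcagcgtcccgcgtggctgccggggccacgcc
Mrpl17: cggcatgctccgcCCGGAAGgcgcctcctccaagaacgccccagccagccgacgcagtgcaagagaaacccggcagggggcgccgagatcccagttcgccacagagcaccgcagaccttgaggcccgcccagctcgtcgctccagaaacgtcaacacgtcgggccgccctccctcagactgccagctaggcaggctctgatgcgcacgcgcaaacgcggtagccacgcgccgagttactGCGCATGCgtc
Mrps22: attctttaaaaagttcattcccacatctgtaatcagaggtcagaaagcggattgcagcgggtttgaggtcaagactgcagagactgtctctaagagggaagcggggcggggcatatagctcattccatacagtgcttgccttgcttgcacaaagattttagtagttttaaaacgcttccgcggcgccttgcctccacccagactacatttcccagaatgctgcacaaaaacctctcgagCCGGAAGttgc
Mrpl22: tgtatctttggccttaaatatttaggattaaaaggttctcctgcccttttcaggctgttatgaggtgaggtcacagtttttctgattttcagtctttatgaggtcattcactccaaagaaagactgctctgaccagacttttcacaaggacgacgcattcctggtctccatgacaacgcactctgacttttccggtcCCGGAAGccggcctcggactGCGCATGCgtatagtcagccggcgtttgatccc
Mrps11: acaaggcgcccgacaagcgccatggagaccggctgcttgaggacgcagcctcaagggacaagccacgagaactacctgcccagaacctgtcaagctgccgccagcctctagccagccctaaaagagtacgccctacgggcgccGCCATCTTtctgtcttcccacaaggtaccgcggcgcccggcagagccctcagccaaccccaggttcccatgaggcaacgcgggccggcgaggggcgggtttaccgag
Mrpl17 and Mrpl22 each held an NRF-1 core and an ETS core, Mrpl52 and Mrps22 an ETS core, and Mrps11 a YY1 core. Mrps11 overlaps Mrpl46, a large-subunit gene on the opposite strand, over the 412 bases between their starts, so that the Mrps11 window lies inside the Mrpl46 gene. Their exons share 173 bases.

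TPM values keep no read depth, so the depth behind each value is unknown. WT titles came in 2 styles, a letter code or a plain number, and cKO titles were all plain. The title style was therefore a term in each fit. The letter codes differed by age (H at P1, heart at P7, B6 at P21) and were fitted as the same style, which the titles do not show. No P1 title was plain, so the style term came from P7 and P21 WT libraries and was carried over to P1. Expression was compared as log2(TPM + 1), called the TPM scale below, and again after dividing each library by its median-ratio size factor, called the scaled values, because the typical gene moved on the TPM scale. The 37 genes of the mitochondrial genome took 13.7 to 17.9% of all TPM in P1 WT, 17.2 to 19.3% in P7 WT, 17.4 to 19.3% in P7 cKO, 22.6 to 24.2% in P21 WT and 20.3 to 20.4% in P21 cKO. Library P1 WT 3 stood apart, with 71 of the 78 genes above its group's mean, and in P21 cKO 55 only 6 were. Markers of cardiomyocytes summed to 57002.7 to 69248.7 TPM in every library. The summed TPM of 10 fibroblast markers was 704 to 887 in P21 WT and 1094 to 1369 in P21 cKO, and that of 10 endothelial markers 403 to 515 and 624 to 660. A gene passed when its adjusted p (limma, Benjamini-Hochberg over 14812 genes) was under 0.05, and changes are log2 differences with their standard error.

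Levels differed widely among proteins that the assembled ribosome holds mostly in single copies. The mean over 18 libraries ran from 7.43 TPM for Mrpl19 to 514 TPM for Mrpl42, a ratio of 69.2, with a median of 58.8 TPM. The highest after Mrpl42 were Mrps21 (267 TPM), Mrpl33 (221), Mrpl52 (189) and Mrpl30 (187), and the lowest before Mrpl19 were Mrpl23 (8.77), Mrpl1 (11.6), Mrps30 (13.8) and Mrpl35 (13.9). TPM is a value per transcript length. Even so, shorter genes had higher values (Pearson r of the logs -0.49, Spearman rho -0.49, across 78 genes, which are not independent). The order of the 78 genes was much the same in every group, with a Spearman rho of 0.941 to 0.993 between pairs of group means. The median coefficient of variation between libraries of a group was 10% in P1 WT, 7.8% in P7 WT, 4.8% in P7 cKO, 6.5% in P21 WT and 6.8% in P21 cKO.

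**Figure D1:**
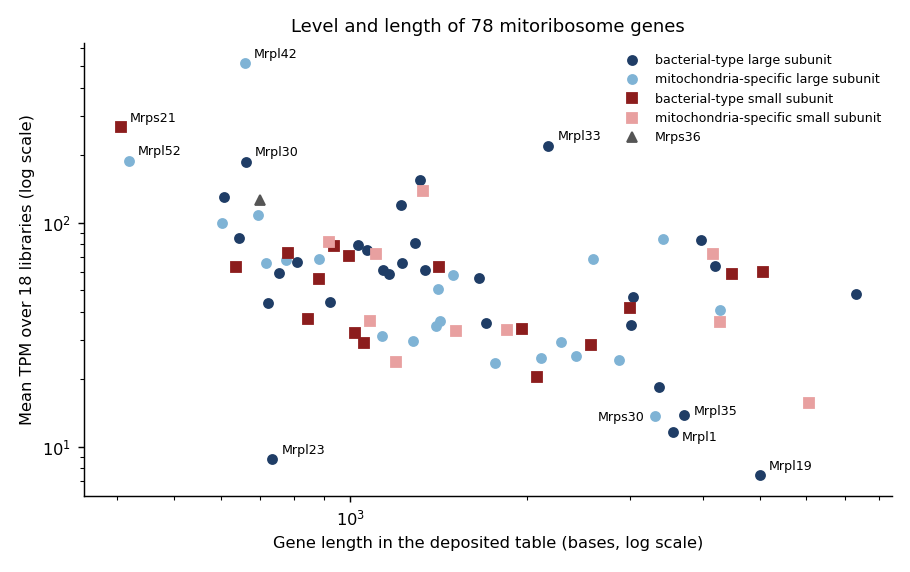
Mean TPM over 18 libraries (vertical, log scale) against the gene length given in the deposited table (horizontal, log scale) for the 78 genes, 1 point each, coloured by subunit and origin, with the 5 highest and 5 lowest named. Mrpl42 lies at 514 TPM and Mrpl19 at 7.43 TPM, and Mrpl23 lies low among the short genes.

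Mrpl23, a large-subunit protein at the exit of the nascent chain tunnel, was low for its short length, and its value is uncertain. Its processed pseudogene Mrpl23-ps1 on chromosome 2 was listed at 149, 167 and 189 TPM in P1 WT, where Mrpl23 had 14.01, 17.0 and 13.2. In P21 WT the pseudogene had 126, 128, 137 and 130.2 TPM and Mrpl23 had 5.38, 3.81, 4.61 and 4.65. Reads of so similar a pair can be credited to either row, and how the counting treated them is not given in the sources used here. Mrps36 stood 9th of 78 at 126 TPM. Of the S18 homologues, Mrps18a averaged 68.4 TPM, Mrps18c 63.4 and Mrps18b 36.5.

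The summed TPM of the 78 genes was lower at P21 than at P1 in WT, with no test run on the sum, while after scaling it was higher. It was 5411, 5524 and 6480 in P1 WT, where P1 WT 3 was the high library. It was 5738, 5213, 5678, 5494 and 5542 in P7 WT and 5599.9, 5458 and 5360.0 in P7 cKO, and the groups overlapped. At P21 it was 4981, 4828, 5283 and 5179.6 in WT and 4812, 5238 and 5354 in cKO, again overlapping. The WT means were 5805 ± 587 (SD, n = 3) at P1, 5533 ± 205 (SD, n = 5) at P7 and 5068 ± 203 (SD, n = 4) at P21, and every P1 library lay above every P21 WT library. After scaling the order of the groups was another: P21 WT libraries reached 6205 to 7439.7, above all 3 P21 cKO libraries at 5554 to 5875, and both lay above the P7 WT range of 4387 to 5405. The ratio of the summed large to the summed small subunit stayed between 2.28 and 2.49 in all 19 libraries.

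**Figure D2:**
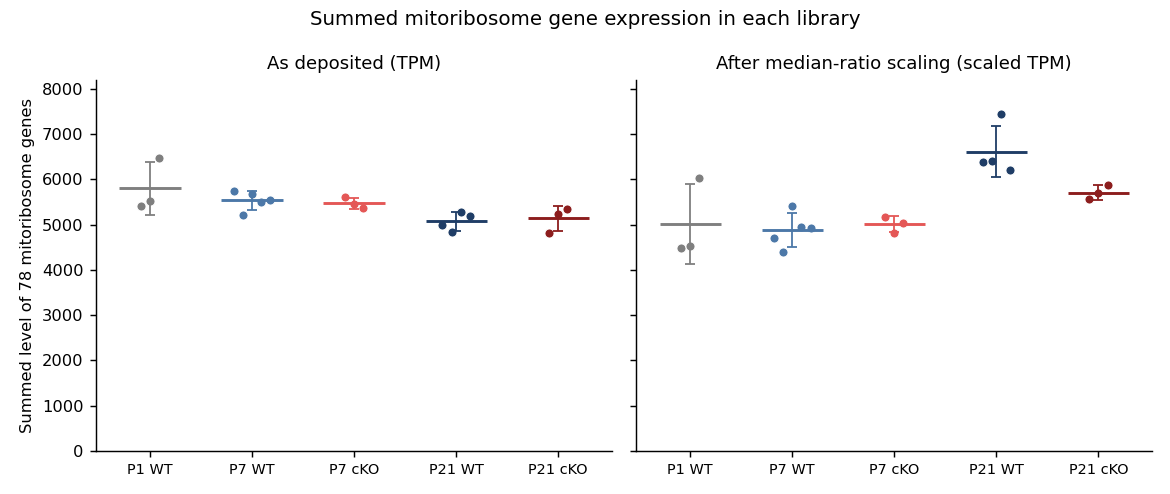
Summed level of the 78 genes (vertical axis, from 0) in each library of the 5 groups, as deposited TPM (left) and after median-ratio scaling (right). Points are libraries, lines the mean and bars its SD. On the left the P21 libraries span 4812 to 5354 and overlap the P7 libraries, and on the right P21 WT (6205 to 7439.7) lies above every other library.

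No difference between PDK1 cKO and WT hearts was detectable in these genes at P7. None of the 78 passed on either scale. Of all 14812 genes 3 (0.0203%) passed on the TPM scale and 3 (0.0203%) after scaling. With so few calls among all genes, the lack of a call does not set the 78 apart. At an unadjusted p under 0.05, 1 was higher and 3 were lower on the TPM scale, and 1 and 1 after scaling. The median change was -0.04, against -0.02 for all genes, and after scaling -0.02 against 0.00. In bulk hearts, fewer cells of a type and less RNA per cell cannot be told apart. The 4 genes with the smallest p are given as values. Mrps26, a small-subunit protein, had 45.8, 34.7 and 30.3 TPM in P7 cKO and 33.3, 30.2, 53.6, 46.2 and 48.1 in P7 WT, where the first 2 libraries carry letter codes; its change was -0.38 ± 0.14 (adjusted p = 1). Mrpl11 had 42.0, 42.0 and 47.6 TPM in cKO and 46.3, 48.0, 52.1, 49.3 and 48.6 in WT (-0.19 ± 0.07, adjusted p = 1). The groups overlapped in both genes. Mrps11 had 29.5, 27.9 and 30.0 TPM in cKO, all below the WT values of 31.9, 31.4, 36.5, 31.7 and 34.1 (-0.18 ± 0.08, adjusted p = 1). Mrpl23 had 10.9, 13.8 and 8.86 TPM in cKO, and 7.77, 9.58, 8.66, 9.08 and 8.21 in WT (0.32 ± 0.15, adjusted p = 1).

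At P21 the outcome depended on the scale. On the TPM scale 2 of the 78 genes rose in cKO hearts, where 19.5% of all genes did, and 1 fell, where 1.77% did. After scaling none rose (background 4%) and 18 fell (background 5.33%). The median change was -0.02 on the TPM scale, where the median gene stood at 0.22, and -0.28 after scaling, where it stood at 0.01. By either account the group lay below the typical gene: 74 of the 78 changes were under the median of all genes on the TPM scale and 76 after scaling. The summed TPM of 36 complex I subunits, a comparison list, also overlapped (16978.2 to 18681.1 in P21 WT, 16758.9 to 17886.8 in P21 cKO). That of cytosolic ribosomal protein genes was higher in cKO (28678.7 to 34251.2 and 35881.9 to 38352.8). A sum that did not separate the genotypes on the TPM scale was therefore not particular to the 78 genes. At an unadjusted p under 0.05, 2 were higher and 6 lower on the TPM scale, and 0 and 49 after scaling.

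**Figure D3:**
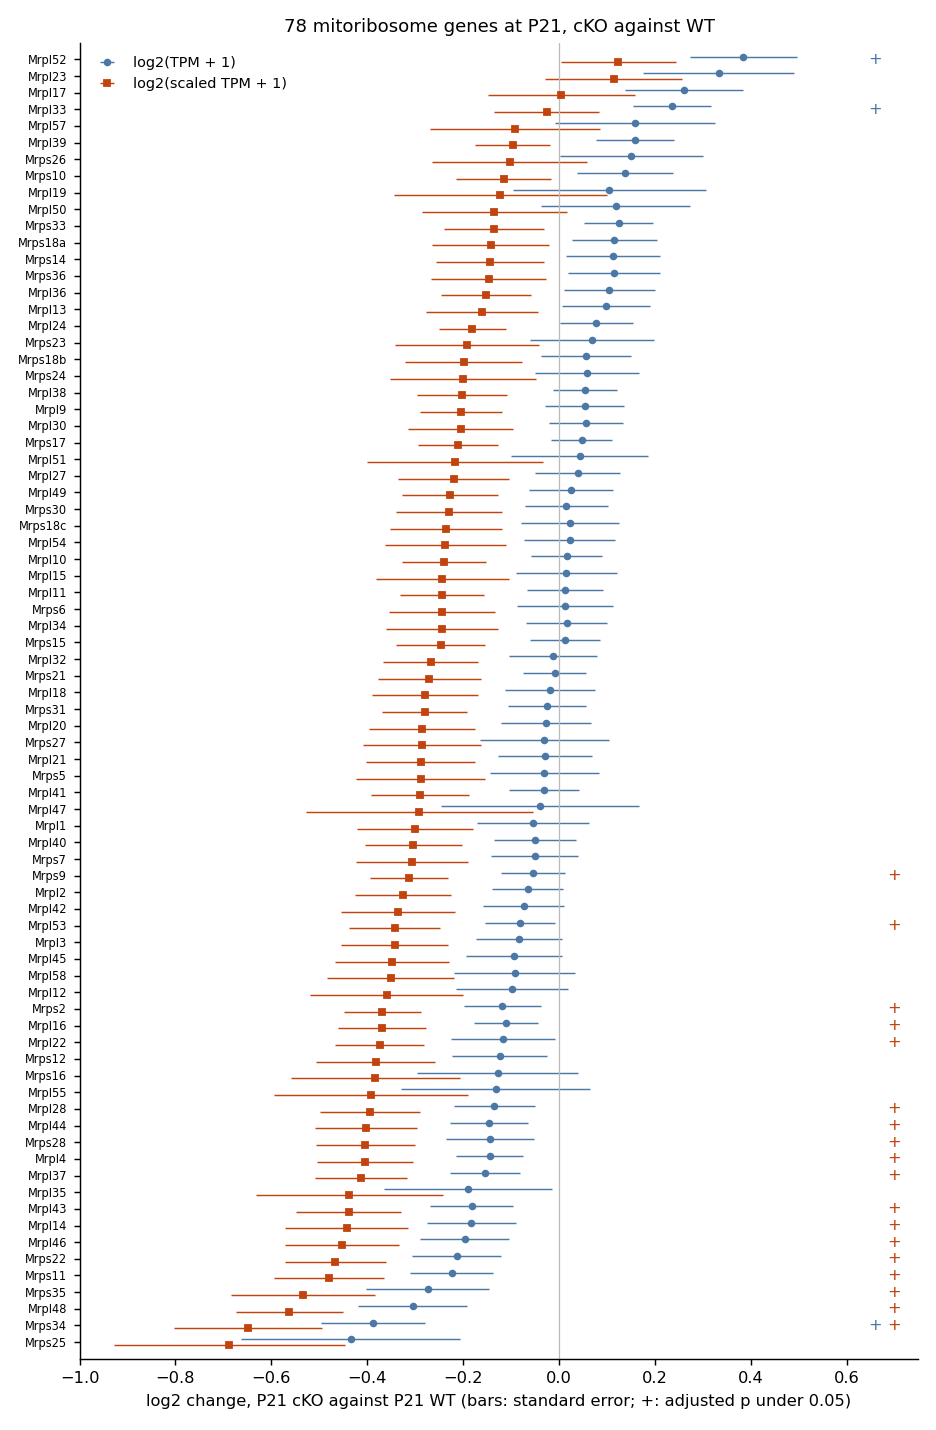
log2 change of each of the 78 genes in P21 cKO against P21 WT (horizontal; bars are standard errors), on the TPM scale (circles) and after median-ratio scaling (squares), ordered by the latter. Plus signs mark an adjusted p under 0.05; Mrps34 (-0.39 and -0.65) is the gene marked on both scales.

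Mrps34, a mitochondria-specific protein of the small subunit, was the member that fell on both scales. It had 77.7, 74.8, 89.3 and 73.5 TPM in P21 WT and 59.9, 68.2 and 65.2 in P21 cKO, so that every cKO library lay below every WT library. The change was -0.39 ± 0.11 (adjusted p = 0.021), and after scaling -0.65 ± 0.15 (adjusted p = 0.0168). On the TPM scale it did not pass without P21 WT 57 (-0.34, adjusted p = 0.0912), P21 cKO 55 (-0.34, 0.0607) or P21 cKO 64 (-0.40, 0.0503), nor among plain-number titles alone (-0.33, 0.0539). After scaling it did not pass without P21 WT 57. Mrps34 (mm10, chromosome 17, 24895116 to 24897502) is an uncertain reading, since 763 of its 2064 exonic bases (37%) belong also to Nme3, a nucleoside diphosphate kinase gene on the same strand, and 1309 to Mapk8ip3 on the other. Those 763 bases are 87.1% of the exonic bases of Nme3, so the Mrps34 and Nme3 rows need not be separate readings. The deposited table lists a length of 918 bases for Mrps34, so these shares need not hold for its values. Nme3 was at 24.0, 20.99, 32.01 and 25.7 TPM in P21 WT and 17.0, 19.7 and 16.9 in P21 cKO (-0.73 ± 0.12, adjusted p = 0.00109), and its fall was the larger of the pair. Mapk8ip3, at 0.15 ± 0.08 (adjusted p = 0.199), did not pass. Pdpk1, 1 of the genes abbreviated PDK1, lies on the same chromosome at 24073680 to 24150924. Whether this nearness bears on the Mrps34 and Nme3 values was not tested.

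Mrpl52 and Mrpl33, both proteins of the large subunit, rose on the TPM scale, and Mrpl33 had the opposite sign after scaling (-0.03, adjusted p = 0.917). Mrpl52 was at 99.1, 111, 123 and 125 TPM in P21 WT and at 138, 149.9 and 157 in P21 cKO, with no overlap. Its change was 0.38 ± 0.11 (adjusted p = 0.0263), and 0.12 after scaling (adjusted p = 0.576). It did not pass without P21 cKO 59 (0.38, adjusted p = 0.0736) or P21 cKO 64 (0.34, 0.0877), and among plain-number titles alone it passed at 0.25. Mrpl33 was at 185, 175, 205 and 194 TPM in P21 WT and at 221, 226 and 228 in P21 cKO (0.24 ± 0.08, adjusted p = 0.049). The cKO values again lay above all WT values, but the call ended in 22 of 28 alternatives. Among them was the omission of any 1 library other than P1 WT 2 and P1 WT 3. With quantile normalization the change was 0.09 (adjusted p = 0.543). It was 0.17 to 0.29 over all alternatives but median-ratio scaling and quantile normalization. Fibroblast markers were also higher in P21 cKO, 10 of 10 on the TPM scale and 6 of 10 after scaling, as were 8 of 10 endothelial markers (1 after scaling). Of all genes 19.5% and 4% rose on these scales. The summed TPM of smooth muscle and pericyte markers was 461 to 679.4 in P21 WT and 731.2 to 1002.5 in P21 cKO. That of cardiomyocyte markers overlapped, at 57002.7 to 62770.1 in P21 WT and 61829.8 to 65478 in P21 cKO. Macrophage and leukocyte markers overlapped too, at 192.9 to 282.2 and 181.7 to 236.1 TPM. The part of these cell types in the result was not tested. Without P7 WT 1, P7 WT 72, P21 WT 2 or P21 WT 60 the members that fell at P21 on the TPM scale numbered 2.

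Mrpl48, a large-subunit protein, had the smallest p after scaling, and how reads were divided between it and a pseudogene is not known. It was at 33.7, 35.8, 40.1 and 41.7 TPM in P21 WT and at 30.2, 29.0 and 31.4 in P21 cKO (-0.30 ± 0.11, adjusted p = 0.0653), and after scaling the change was -0.56 ± 0.11 (adjusted p = 0.006). The processed pseudogene Mrpl48-ps, on chromosome 4, was listed at 7.36, 8.18 and 7.57 TPM in P7 cKO and at 6.17, 6.95 and 6.54 in P21 cKO. All 12 WT libraries but 1 had 0.26 TPM or less in that row. The exception was P7 WT 72, with 6.49 TPM of the pseudogene, and it also had the lowest Mrpl48 of the P7 WT group (34.2, against 49.0, 44.2, 44.6 and 42.0 TPM). Summed over both rows, P21 WT libraries had 33.7, 36.0, 40.1 and 41.7 TPM and P21 cKO libraries 36.4, 36.0 and 38.0, so the groups overlapped. The change of the sum was -0.05 ± 0.09 (adjusted p = 0.685), and after scaling -0.31 ± 0.10 (adjusted p = 0.0562). At P7 the Mrpl48 row alone had 41.0, 42.6 and 40.7 TPM in cKO. The P7 sum was 48.4, 50.7 and 48.3 TPM in cKO and 49.0, 44.2, 40.7, 44.6 and 42.0 in WT. Its change was 0.14 ± 0.08, and 0.17 ± 0.09 after scaling, and it did not pass on either scale. The sum was added after the values were seen.

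**Figure D4:**
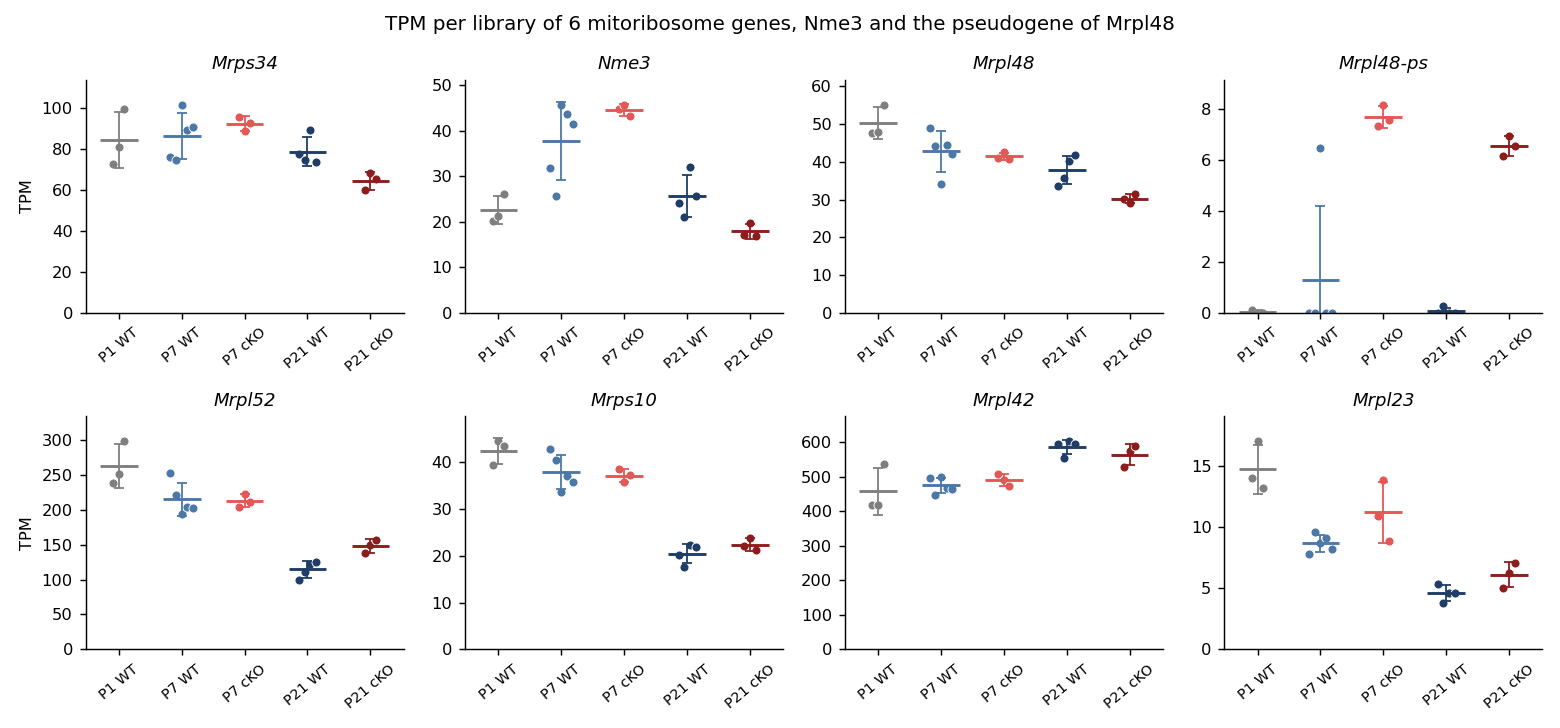
TPM in each library of the 5 groups (vertical axes from 0; points are libraries, lines the mean, bars its SD) for 6 mitochondrial ribosome genes, for Nme3 and for the pseudogene Mrpl48-ps. Mrps34 and Nme3 are lowest in P21 cKO, Mrpl48-ps stands at 6.17 to 8.18 TPM in all cKO libraries and at 6.49 in 1 WT library, and Mrps10 and Mrpl52 drop between P7 and P21.

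The other genes with the smallest p after scaling changed less. Mrps22, a mitochondria-specific small-subunit protein whose promoter is shown above, was at 19.7, 19.4, 18.4 and 20.5 TPM in P21 WT and 16.0, 17.3 and 16.5 in P21 cKO. No values overlapped, and the change was -0.21 ± 0.09 (adjusted p = 0.11), or -0.47 ± 0.10 after scaling (adjusted p = 0.0118). Mrps2 was at 16.6, 15.7, 16.4 and 17.8 TPM in WT and 15.2, 15.8 and 16.6 in cKO, which overlapped on the TPM scale (-0.37 ± 0.08 after scaling, adjusted p = 0.0092). Mrps11, of the bacterial-type platform of the small subunit, was at 29.6, 28.2, 28.0 and 25.2 TPM in WT and 21.03, 25.4 and 24.6 in cKO (scaled -0.48 ± 0.11, adjusted p = 0.0173). Mrpl46, which overlaps it on the other strand and was named after its values were seen, was at 31.5, 30.6, 30.2 and 31.1 TPM in WT and 25.1, 27.9 and 28.5 in cKO (scaled -0.45 ± 0.12, adjusted p = 0.0276). Both genes of the pair fell after scaling and neither passed on the TPM scale (adjusted p = 0.0742 and 0.131). The 173 shared exonic bases are 8% of those of Mrps11 and 12.2% of those of Mrpl46, and reads there can be credited to either gene where strand is not used.

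Mrpl37, Mrpl4 and Mrpl22, all of the large subunit, followed with scaled changes of -0.41 ± 0.10 (adjusted p = 0.014), -0.40 ± 0.10 (0.0201) and -0.37 ± 0.09 (0.0204). Mrpl37 was at 61.5, 58.9, 60.9 and 59.8 TPM in P21 WT and 48.9, 56.4 and 59.9 in P21 cKO, where library 55 was the low one. Mrpl4 was at 85.7, 79.4, 86.5 and 84.8 TPM in WT and 72.5, 83.9 and 81.5 in cKO. Mrpl22 was at 42.3, 43.0, 34.7 and 42.6 TPM in WT, with library 57 low, and 30.8, 40.5 and 36.2 in cKO. The TPM values of the groups overlapped in all 3. Beside Mrpl46, the other 9 genes that fell after scaling were Mrpl14, Mrpl16, Mrpl28, Mrpl43, Mrpl44, Mrpl53, Mrps9, Mrps28 and Mrps35, with scaled changes between -0.31 and -0.53.

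These scaled calls rested on few libraries. The count of 18 was 4 without P21 WT 57, 5 without P21 cKO 55, 8 without P21 cKO 59, 11 without P21 cKO 64, 28 without P21 WT 60 and 34 without P1 WT 3, and among plain-number titles alone it was 10. Leaving out a library alters the test of every gene. Counts of all genes in these refits are not given, so the swing is not shown to be particular to the members. Mrpl48 and Mrps22 passed in all 19 of these refits, and Mrps34 and Mrps2 in 18 of 19. By class, 5 of 29 bacterial-type and 6 of 22 mitochondria-specific large-subunit genes fell after scaling, and 4 of 16 and 3 of 10 of the small subunit. The medians of the 4 classes lay between -0.30 and -0.27.

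The difference between the P21 and the P7 effect of the knockout passed in none of the 78 genes, on either scale (limma; 7.56% of all genes passed on the TPM scale and 2.33% after scaling). At an unadjusted p under 0.05, 5 were higher and 1 lower on the TPM scale, and 0 and 26 after scaling. Without P1 WT 3 or P21 WT 60, 2 members passed as higher and 1 as lower on the TPM scale, and without P7 WT 72 1 passed as lower. The median difference was 0.04 against 0.24 for all genes, and -0.25 against 0.00 after scaling. On the TPM scale Mrps34 had the smallest p, with a difference of -0.41 ± 0.14 (adjusted p = 0.0728) and -0.70 ± 0.20 after scaling (adjusted p = 0.0778). Mrps26 (0.53 ± 0.19, adjusted p = 0.0885), Mrpl52 (0.39 ± 0.14, 0.0951) and Mrpl33 (0.27 ± 0.10, 0.107) came next there. After scaling the smallest p was that of Mrpl48 (-0.56 ± 0.14, adjusted p = 0.0535), whose pseudogene is described above, followed by Mrpl37 (-0.44 ± 0.12, 0.0738). The effect at P21 is therefore not shown to differ from that at P7 for any member. Nme3, which overlaps Mrps34, passed this test (-0.80 ± 0.15, adjusted p = 0.00819, and -1.08 ± 0.20 after scaling, adjusted p = 0.0113).

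Between P1 and P7 in WT hearts 15 of the 78 genes fell and 2 rose on the TPM scale, where 14.7% and 13.8% of all genes did. After scaling 11 fell (background 16.1%) and none rose (14.8%), and 10 genes fell on both scales. The median change was -0.09 on the TPM scale and -0.10 after scaling, against -0.00 and -0.01 for all genes, and with quantile normalization it was 0.00, with 6 rises and 8 falls. Cytosolic ribosomal protein genes, fixed as a comparison list, fell in 74 of 78 cases with a median of -0.50 (72 and -0.51 after scaling). Without P1 WT 3, the library that stood apart, 9 members fell on the TPM scale and 4 rose, and after scaling 4 fell and 5 rose. Without P7 WT 3 the scaled count of falls was 5. Over the same ages the summed TPM of cycling-cell markers went from 359.7 to 402.7 at P1 to 230.9 to 313.5 at P7, with 3 of 8 lower on both scales. That of endothelial markers went from 677 to 714.7 to 802.5 to 921.1, with 7 of 10 higher (6 after scaling). The part of either in the result was not tested.

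Mrps30, a large-subunit protein in spite of its name, was at 20.2, 19.6 and 18.7 TPM at P1 and at 11.9, 13.6, 15.8, 12.9 and 13.8 at P7. The groups did not overlap, and the change was -0.56 ± 0.09 (adjusted p = 0.000295; scaled -0.56, adjusted p = 0.00161). Mrpl54 went from 128, 131 and 149 TPM to 111, 92.6, 116, 116 and 102 (-0.47 ± 0.09, adjusted p = 0.00179; scaled -0.48, 0.0101). Mrpl38 went from 57.1, 62.8 and 62.4 TPM to 49.0, 48.3, 53.4, 53.0 and 53.1 (-0.32 ± 0.07, adjusted p = 0.00212; scaled -0.33, 0.0144). Every P7 value of these 2 mitochondria-specific genes lay below every P1 value. Mrpl23 fell by the widest margin, from 14.01, 17.0 and 13.2 TPM to 7.77, 9.58, 8.66, 9.08 and 8.21 (-0.71 ± 0.16, adjusted p = 0.00377; scaled -0.70, 0.00189). Its pseudogene row fell too (-0.39 ± 0.08, adjusted p = 0.00261).

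Mrpl24 went from 82.2, 75.8 and 76.1 TPM at P1 to 66.8, 66.6, 54.9, 61.1 and 58.7 at P7 (-0.31 ± 0.08, adjusted p = 0.00696; scaled -0.32, 0.00344). Mrpl43 went from 37.9, 43.6 and 48.2 TPM to 35.3, 32.4, 39.7, 36.0 and 36.3 (-0.38 ± 0.09, adjusted p = 0.00444; scaled -0.38, 0.0153). Mrps18b went from 37.7, 45.3 and 48.8 TPM to 35.0, 29.9, 39.9, 33.2 and 37.9 (-0.41 ± 0.09, adjusted p = 0.00448; scaled -0.41, 0.0182). The ranges met in the last 2 genes and not in Mrpl24. The other S18 homologues did not pass, Mrps18a at -0.07 (adjusted p = 0.589) and Mrps18c at 0.01 (0.976). Mrps21, the second most abundant member, went from 289, 289.8 and 329 TPM to 264, 245, 252, 248 and 245 (-0.28 ± 0.07, adjusted p = 0.00578), and did not pass after scaling (-0.28, 0.0583). Mrps14 and Mrpl18 rose on the TPM scale and did not pass after median-ratio scaling, though both passed with quantile normalization (adjusted p = 0.0159 and 0.00493). Mrps14 went from 34.0, 30.9 and 37.8 TPM to 44.4, 40.8, 42.0, 36.7 and 44.5 (0.29 ± 0.10, adjusted p = 0.0393; scaled 0.28, 0.0738), and Mrpl18 from 106, 109 and 129.6 TPM to 154, 128, 131, 122 and 135 (0.26 ± 0.09, adjusted p = 0.0494; scaled 0.25, 0.097). Neither passed without P1 WT 1, P1 WT 2, P7 WT 1, P7 WT 72, P7 WT 77, P21 WT 2 or P21 WT 3. Mrps14 alone passed without P7 cKO 69, P7 cKO 75, P7 cKO 82, P21 WT 57 or P21 cKO 64, and Mrpl18 alone without P7 WT 3.

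Between P7 and P21 in WT hearts the direction of most members turned with the scale. On the TPM scale 36 of 78 fell, where 64.4% of all genes fell, and 1 rose, where 8.1% did. After scaling 55 rose (background 27%) and 3 fell (27.4%). Their median change was -0.16 against -0.47 for all genes, and 0.39 against -0.01 after scaling, so that on each scale the members stood above the typical gene. On the TPM scale 70 of the 78 lay above the median gene. No gene but Mrpl42 rose on both scales, and Mrpl23, Mrpl52 and Mrps10 fell on both. Mrpl19, Mrpl35, Mrpl47 and Mrpl51 passed on neither, and 17 genes fell on the TPM scale and rose after scaling. Of 36 listed complex I subunits, all encoded in the nucleus and not made by the mitochondrial ribosome, 11 rose and 1 fell. After scaling 35 of them rose (median 0.65). Of the cytosolic ribosomal protein genes 77 of 78 fell (median -0.66), and after scaling 16 fell and 1 rose.

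**Figure D5:**
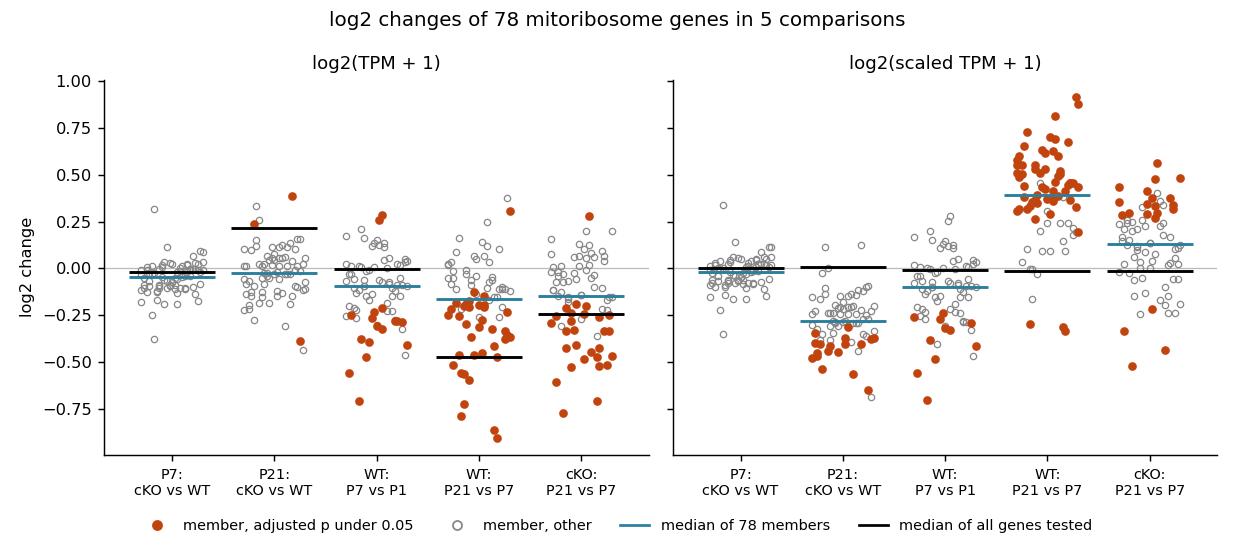
log2 change of each of the 78 genes (points; filled where the adjusted p was under 0.05) in 5 comparisons, on the TPM scale (left) and after median-ratio scaling (right). The blue line is the median of the 78 genes and the black line the median of all 14812 genes; for P21 WT against P7 WT the 2 lines are at -0.16 and -0.47 on the left and at 0.39 and -0.01 on the right.

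Mrps10, a bacterial-type protein of the small subunit head, was at 42.7, 40.4, 33.6, 37.1 and 35.8 TPM in P7 WT and at 20.1, 17.6, 22.3 and 21.8 in P21 WT. That is a change of -0.86 ± 0.08 (adjusted p = 1.65e-07), and of -0.31 ± 0.08 after scaling (adjusted p = 0.00409). Mrpl52, with the ETS core in the promoter shown above, went from 252, 221, 194, 204 and 203 TPM to 99.1, 111, 123 and 125. Its change was -0.90 ± 0.09 (adjusted p = 3.29e-07; scaled -0.33 ± 0.10, adjusted p = 0.00838). Mrpl23, subject to the doubt about its pseudogene, went from 7.77 to 9.58 TPM at P7 to 3.81 to 5.38 at P21 (-0.79 ± 0.13, adjusted p = 4.58e-05; scaled -0.30 ± 0.12, 0.0403). Its pseudogene row did not pass (0.04 ± 0.07, adjusted p = 0.633). Mrpl42, a mitochondria-specific large-subunit protein and the most abundant member, went the other way, from 496, 448, 498, 466 and 465 TPM to 593, 555, 602 and 594. Every P21 value lay above every P7 value, and the change was 0.31 ± 0.07 (adjusted p = 0.000821; scaled 0.88 ± 0.10, adjusted p = 1.89e-06). Mrps10 did not pass after scaling in 1 of 19 refits, Mrpl23 in 7, and Mrpl52 and Mrpl42 passed in all.

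Other members with the smallest p on the TPM scale fell there but had scaled changes near 0 or above it. Mrpl54 went from 111, 92.6, 116, 116 and 102 TPM to 60.6, 62.5, 86.6 and 71.7 (-0.59 ± 0.08, adjusted p = 4.9e-06; scaled -0.03, 0.845). Mrpl17, whose promoter held both an NRF-1 and an ETS core, went from 53.9, 57.6, 52.9, 63.4 and 62.9 TPM to 33.0, 31.2, 38.9 and 34.9 (-0.72 ± 0.10, adjusted p = 9.11e-06; scaled -0.16, 0.279). Mrps18c went from 75.1, 74.6, 70.3, 73.3 and 74.0 TPM to 51.0, 46.5, 47.2 and 53.0 (-0.56 ± 0.08, adjusted p = 1.69e-05; scaled -0.00, 0.99). P7 and P21 did not overlap in these genes. Mrps22 went from 31.1, 26.2, 29.8, 26.6 and 27.9 TPM to 19.7, 19.4, 18.4 and 20.5 (-0.52 ± 0.08, adjusted p = 1.76e-05; scaled 0.03, 0.764). Mrps2 went from 23.3, 20.3, 25.9, 22.4 and 24.8 TPM to 16.6, 15.7, 16.4 and 17.8 (-0.45 ± 0.07, adjusted p = 1.56e-05; scaled 0.09, 0.24). Mrpl16 went from 68.8, 61.4, 67.4, 62.5 and 63.5 TPM to 52.8, 50.3, 49.4 and 48.1 (-0.37 ± 0.05, adjusted p = 1.69e-05), and it rose after scaling (0.20 ± 0.07, adjusted p = 0.0361).

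After Mrpl42, the 7 genes with the smallest p among those that rose after scaling did not pass on the TPM scale. Mrpl44, Mrpl4, Mrpl30, Mrps21, Mrpl36, Mrpl39 and Mrpl37 rose by 0.46 to 0.70 after scaling, while on the TPM scale their changes were -0.10 to 0.14. Mrpl44 was at 36.8, 35.0, 40.1, 35.8 and 35.2 TPM in P7 WT and 42.8, 40.5, 38.6 and 39.9 in P21 WT (scaled 0.70 ± 0.09). Mrpl4 was at 75.7, 72.9, 90.5, 81.4 and 79.8 TPM and then at 85.7, 79.4, 86.5 and 84.8 (scaled 0.65 ± 0.08). Mrpl37 was at 61.4, 56.6, 63.5, 61.5 and 61.6 TPM and then at 61.5, 58.9, 60.9 and 59.8 (scaled 0.55 ± 0.08). Ages overlapped in all 3 genes before scaling. Mrps36, the dehydrogenase subunit, behaved alike, with 115 to 142 TPM at P7 and 125 to 134 at P21 (0.05, adjusted p = 0.577; scaled 0.62 ± 0.10, adjusted p = 6.88e-05). Markers of cycling cells fell in 8 of 8 cases and fibroblast markers in 9 of 10 (8 and 7 after scaling), where 64.4% of all genes fell (27.4% after scaling). The part of these markers in the results was not tested. With plain-number titles alone, 25 members fell and 2 rose on the TPM scale, and 1 fell and 46 rose after scaling. The 1 rise on the TPM scale became 4 without P7 WT 1 and 2 without P1 WT 3, P7 WT 72, P7 WT 77 or P21 cKO 55.

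In cKO hearts the same interval gave 27 falls and 1 rise on the TPM scale (39% and 9.36% of all genes), and 4 falls and 17 rises after scaling (20.2% and 19.5%). The median was -0.14 against -0.24 for all genes, and 0.13 against -0.01 after scaling. The summed TPM of cycling-cell markers went from 221.4 to 259.6 at P7 to 5.4 to 14.5 at P21, with 8 of 8 lower on both scales. Fibroblast markers went from 1673 to 2126 TPM to 1094 to 1369, endothelial markers from 861.2 to 912.7 to 623.8 to 659.9, and macrophage markers from 80.5 to 95.8 to 181.7 to 236.1, and the part of these in the result was not tested. Mrpl23, Mrps10, Mrps2 and Mrps22 fell on both scales and Mrpl30 rose on both. Mrps10 was at 38.5, 35.8 and 37.2 TPM in P7 cKO and 22.1, 23.9 and 21.1 in P21 cKO (-0.71 ± 0.10, adjusted p = 3e-05; scaled -0.43 ± 0.10, 0.00226). Mrps22 went from 26.6, 27.8 and 22.9 TPM to 16.0, 17.3 and 16.5 (-0.60 ± 0.09, adjusted p = 7e-05; scaled -0.33 ± 0.10, 0.0173). Mrps2 went from 23.3, 22.6 and 21.9 TPM to 15.2, 15.8 and 16.6 (-0.48 ± 0.08, adjusted p = 0.000143; scaled -0.21 ± 0.08, 0.0397). In each of these genes the ages did not overlap. Mrpl30 went from 182, 175 and 161 TPM to 207, 203 and 221 (0.28 ± 0.08, adjusted p = 0.00579; scaled 0.56 ± 0.11, 0.000622).

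Falls on the TPM scale alone in cKO hearts were seen in Mrpl16, Mrpl54, Mrpl27 and Mrps34, among others. Mrpl16 went from 67.0, 63.2 and 60.2 TPM to 44.4, 44.6 and 48.1 (-0.47 ± 0.06, adjusted p = 2.97e-05; scaled -0.19, 0.111). Mrps34 went from 96.0, 88.8 and 92.9 TPM to 59.9, 68.2 and 65.2 (-0.52 ± 0.11, adjusted p = 0.000862; scaled -0.24, 0.229). In WT over the same ages its change was -0.11 (adjusted p = 0.277). Mrpl36, Mrpl39, Mrps14, Mrpl42, Mrpl11, Mrpl44 and Mrps21 rose after scaling, by 0.33 to 0.48, and did not pass on the TPM scale. Without P21 cKO 55, the low library, 14 members fell and 3 rose on the TPM scale, and 2 rose without P1 WT 1, P1 WT 2 or P1 WT 3. After scaling 10 rose without P7 cKO 75 and 9 without P21 cKO 64, and the 4 falls became 2 without P7 cKO 69, P7 cKO 75 or P21 cKO 64. Whether the change with age differed between the genotypes is the same test as the difference of knockout effects above, which no member passed.

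The rest of the mitochondrial translation apparatus was read from lists set beside the members. Of 5 ribosomal proteins named outside the Mrp scheme, Ptcd3 (mS39), a small-subunit protein, fell in P21 cKO hearts on both scales. It was at 57.9, 54.3, 54.5 and 56.8 TPM in P21 WT and 44.5, 47.7 and 50.2 in P21 cKO, with no overlap (-0.24 ± 0.07, adjusted p = 0.0281; scaled -0.50 ± 0.09, 0.0022). Dap3 (mS29), a GTP-binding small-subunit protein, passed there after scaling alone (-0.36 ± 0.09, adjusted p = 0.0192; TPM scale -0.10, 0.299). It fell between P1 and P7, from 81.0, 78.5 and 90.9 TPM to 55.1, 52.6, 53.6, 56.8 and 54.2 (-0.64 ± 0.07, adjusted p = 1.6e-05; scaled -0.65, 0.000102).

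Among 16 of 17 listed translation factors that were tested, Rmnd1, an inner-membrane protein needed for mitochondrial translation, rose in P21 cKO on both scales. It was at 34.3, 35.6, 29.6 and 34.8 TPM in P21 WT and at 50.9, 54.1 and 60.9 in P21 cKO (0.78 ± 0.11, adjusted p = 0.000566; scaled 0.52 ± 0.11, 0.00837). Its P21 effect also differed from its P7 effect on the TPM scale (0.63 ± 0.14, adjusted p = 0.0198) and not after scaling (0.35, 0.228), while Gfm1 passed that test after scaling alone (-0.38 ± 0.09, adjusted p = 0.0395). Of all genes, 19.5% rose in P21 cKO on the TPM scale and 4% after scaling. Another 5 factors fell, after scaling alone, where 5.33% of all genes fell. They were Gfm1, an elongation factor (-0.32 ± 0.07, adjusted p = 0.0119), Mtif3, an initiation factor (-0.48 ± 0.12, 0.0191), Oxa1l, the insertase that receives new chains (-0.24 ± 0.07, 0.0324), Taco1 (-0.41 ± 0.11, 0.0369) and Tufm (-0.39 ± 0.11, 0.0409). Of 26 assembly and ribosomal RNA processing factors, Gtpbp10, a GTPase of large-subunit assembly, rose on the TPM scale (0.41 ± 0.12, adjusted p = 0.0307; scaled 0.18, 0.282), and Nsun4 and Mrm3, which modify the ribosomal RNAs, fell after scaling (-0.45 ± 0.09, adjusted p = 0.00799, and -0.40 ± 0.11, 0.0407). None of 17 mitochondrial aminoacyl-tRNA synthetases passed at P21. None of these lists had a gene that passed at P7, where only 3 of all 14812 genes did on each scale.

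With age in WT hearts these lists also gave calls in both directions. From P1 to P7, 4 of 16 translation factors rose and 1 fell, led by Gfm2 (0.52 ± 0.07, adjusted p = 0.000101) and Taco1 (0.63 ± 0.11, 0.000648), and after scaling 3 rose and 1 fell. Over these ages 13.8% of all genes rose and 14.7% fell on the TPM scale (14.8% and 16.1% after scaling). Of the synthetases Ears2, which charges the glutamate transfer RNA, fell most, from 23.2, 25.9 and 22.5 TPM to 10.8, 9.35, 9.57, 8.11 and 9.6 (-1.24 ± 0.13, adjusted p = 1.54e-05; scaled -1.23). The 3 of 26 assembly factors that fell were Mpv17l2 (-0.54 ± 0.10, adjusted p = 0.00109), Rbfa (-0.36 ± 0.09, 0.00808) and Ngrn (-0.32 ± 0.10, 0.0223), and 4 fell after scaling. From P7 to P21, 11 of 16 translation factors fell on the TPM scale and 10 rose after scaling, 10 of 17 synthetases fell and 7 rose, and 11 of 26 assembly factors fell with 1 rise, against 15 rises with 1 fall after scaling. Of all genes, 64.4% fell on the TPM scale and 27% rose after scaling, so the TPM shares of the factors and synthetases were near the background and that of the assembly factors below it. Oxa1l (-0.51 ± 0.06, adjusted p = 9.68e-07; scaled 0.05) and Mpv17l2 (-0.61 ± 0.08, 7.26e-06; scaled -0.07) had the smallest p of their lists.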

How the data were processed

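RNA from 19 mouse heart libraries was sequenced by the authors, who deposited TPM values per gene and library. Per the labels' protocols libraries were prepared from total RNA with the SMARTER mRNA-Seq kit, and per the submitters' processing notes TopHat2 2.0.14, Cufflinks 2.2.1 and the mm10 build were used. How reads shared by overlapping genes or pseudogenes were assigned is not given in the sources used here. Groups came from the genotype and age labels, and library 63 was kept out. Not used were 2 columns of the table that match no labelled sample, and the authors' group means. Genes with at least 1 TPM in 3 of 18 libraries (14812) were fitted as log2(TPM + 1) with limma 3.58.1 (R 4.3.3), with group and title style as terms, a trend in the prior variance and Benjamini-Hochberg adjustment within a comparison. Adding 1 shrinks the changes of low genes. The same fit was run on values divided by median-ratio size factors, and the method was tested on artificial data first. P21 WT and P7 WT libraries serve in both the knockout and the age comparisons, so those results share libraries.

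The members and lists were chosen with earlier results of these data known. Genes named with values were up to 8 per direction with the smallest p among those that passed on either scale, or 4 where none passed, the 5 highest and 5 lowest members, Mrpl48, the S18 homologues, Mrps30 and Mrps36, and up to 3 per direction from other lists. The fits were repeated with quantile normalization, with no filter or 5 TPM as the minimum, with 0.1 as the pseudocount, without the style term, on plain-number titles alone, with the replicate number as a block, with library 63 added to cKO or to WT, and without each library in turn.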

Additional observations from a re-analysis of the deposited data

Results flagged for a closer look

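In 68 groups of 4 or 5 libraries, over 32 named members and the summed levels, the highest or lowest library was checked for a gap to its nearest neighbour that is wide against the group's range. Chance gives such a gap in about 1 of 20 groups, and 2 were found, both in library P21 WT 57. Mrpl22 was at 34.73 TPM there, against 42.29 to 42.99 TPM in the other 3 P21 WT libraries. Mrps21 was at 293.18 TPM there, against 259.95 to 263.52 TPM in the others.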

How the results depend on the processing

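Counts of members that passed are given as higher and lower, with those of the unscaled fit first. For P21 cKO against P21 WT, 2 and 1 became 0 and 18 with median-ratio scaling, 0 and 15 with quantile normalization, 0 and 0 with no filter or with library 63 as cKO, and the lower count was 3 with library 63 as WT. The higher count was 1 with plain-number titles alone and 1 with the replicate block. Leaving out each library gave 0 to 3 higher and 0 to 2 lower, and 4 to 34 lower after scaling. With plain-number titles alone the scaled lower count was 10. For P7 WT against P1 WT, 2 and 15 became 6 and 8 with quantile normalization and 0 and 9 with no filter. The higher count was 0 with median-ratio scaling, 1 with a pseudocount of 0.1 and 0 with the replicate block. Leaving out each library gave 0 to 4 higher and 9 to 17 lower, and after scaling 0 to 5 higher and 4 to 15 lower. For P21 WT against P7 WT, 1 and 36 became 55 and 3 with median-ratio scaling and 51 and 3 with quantile normalization, and the higher count was 2 with plain-number titles alone or with library 63 as WT. Leaving out each library gave 1 to 4 higher and 27 to 39 lower. After scaling it gave 52 to 62 higher and 2 to 3 lower, and plain-number titles alone gave 1 lower. For P21 cKO against P7 cKO, 1 and 27 became 17 and 4 with median-ratio scaling and 21 and 6 with quantile normalization. The higher count was 2 with a filter of 5 TPM, with plain-number titles alone or with library 63 as WT, and the lower count was 17 with no filter. Leaving out each library gave 1 to 3 higher and 14 to 29 lower, and after scaling 9 to 25 higher and 2 to 5 lower. The difference of knockout effects gave 0 to 2 higher and 0 to 1 lower. The median-ratio size factors were 1.074 to 1.219 in P1 WT, 1.051 to 1.218 in P7 WT and 1.064 to 1.133 in P7 cKO. They were 0.71 to 0.835 in P21 WT and 0.866 to 0.921 in P21 cKO. Dividing by them shifts every gene of a library by the same factor, so members moved together between the scales. Why the size factors differ between groups, and why the other settings changed the counts, was not tested. Of the 78 members, 33 changed sign in P21 cKO against P21 WT with median-ratio scaling (32 with quantile normalization), 56 (53) in P21 WT against P7 WT, 38 (35) in P21 cKO against P7 cKO, 2 (16) in P7 WT against P1 WT and 15 (13) in P7 cKO against P7 WT. Among members chosen for naming, the sign turned for Mrpl33 in P21 cKO (-0.026 with median-ratio scaling) and, for P21 WT against P7 WT, with median-ratio scaling and then quantile normalization, for Mrps2 (0.093, 0.072), Mrpl16 (0.197, 0.061), Mrpl39 (0.46, 0.37) and Mrpl37 (0.55, 0.43), and for Mrps22 with the former (0.033). Same-numbered WT libraries did not deviate together between P1 and P7 (r = -0.10) or between P1 and P21 (r = 0.01, both across 14812 genes). Each r compares a single difference between libraries at each age, so it cannot exclude that the numbers pair them. With the replicate block the P21 WT against P7 WT lower count was 31. No plain-number fit exists for P7 WT against P1 WT, since all P1 titles are letter codes. Leaving out libraries after scaling, plain-number titles after scaling and the sum of Mrpl48 and its pseudogene were added after seeing the data. Depth is unknown, so counting error could not be set beside any value.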

Other observations

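Library 63 of P21, which has a cKO genotype label and a title without the KO mark of the other cKO libraries, had a summed level of the 78 genes of 5068 TPM. Its values were 76.3 TPM for Mrps34, 21.6 for Nme3, 118 for Mrpl52, 192 for Mrpl33, 39.3 for Mrpl48 and 0 for Mrpl48-ps. The 37 genes of the mitochondrial genome took 22.8% of its TPM. Each of these values lay inside the P21 WT range, and each but the sum lay outside the P21 cKO range.

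The 2 RNAs of the mitochondrial ribosome were looked at after the lists were set. An mRNA-Seq kit was used, and how fully it captured these ribosomal RNAs is not known. The small-subunit RNA mt-Rnr1 was at 673, 873, 583, 631 and 656 TPM in P7 WT and at 2798, 2979, 2926 and 2125 in P21 WT, a rise of 1.96 ± 0.13 (limma, adjusted p = 3.84e-09; scaled 2.53, 4.72e-09). P21 cKO libraries had 2181, 1753 and 1899 TPM, which overlapped the WT range (-0.34, adjusted p = 0.136; scaled -0.60, 0.0711). The large-subunit RNA mt-Rnr2 rose over the same ages in WT by 1.07 ± 0.20 (adjusted p = 0.000178; scaled 1.65, 1.93e-05), and its P21 cKO change did not pass (-0.44, adjusted p = 0.207; scaled -0.70, 0.138).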
